A study of Rattus norvegicus with 8 samples.

Results

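The ribosomal protein genes studied here are those whose products build the cytosolic ribosome, followed in rat soleus after short changes in weight bearing. They were chosen by name: every probe set with a single gene symbol that begins with Rpl or Rps and a digit, leaving out the Rps6k kinases, or that is Rplp0, Rplp1, Rplp2 or Rpsa. This gave 43 of the 4736 gene symbols on the array, measured by 63 of its 8740 probe sets. Of them, 42 probe sets (29 symbols) belong to the large subunit and 21 (14 symbols) to the small subunit. The naming rule uses no measured value, but the members were chosen with earlier results of these data known. After the filter on low signal, 61 probe sets of 42 symbols could be tested. Both untested sets belong to Rps2-ps1, a pseudogene symbol, with signals between 1.3 and 41.2 on the 8 arrays. The symbols include a further pseudogene, Rps4x-ps9.

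All animals were female rats, and the sources used here give neither strain nor age. The control group (3 arrays) had 12 h of ordinary cage activity. The unloaded group (3 arrays) spent 12 h with the hindlimbs lifted off the floor, which takes body weight off the soleus. The walked group (2 arrays) was unloaded for 12 h as well and then walked on a treadmill for 2 h in all, in 30 min bouts that alternated with 30 min of cage activity over 4 h. Walked muscle was therefore collected later after the start of unloading than unloaded muscle. The walking cannot be told apart from this added time or from the cage activity between the bouts. Each array carried 1 pool of RNA from 8 to 10 rats, so the spread between arrays is a spread between pools and not between rats. The labels do not say whether any rat gave RNA to more than 1 pool.

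A ribosome joins a small subunit, which reads the mRNA, to a large subunit, which forms peptide bonds and releases the growing chain through an exit tunnel. The mRNAs of ribosomal proteins are among the most abundant of a cell and typically start with a run of pyrimidines, the 5′ terminal oligopyrimidine (TOP) motif, through which mTOR signalling controls how well they are translated. In postural muscle, protein synthesis falls early after weight bearing is removed, and ribosome content is known to follow load over longer periods.

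The sequences around the annotated starts of transcription show this motif and how far members differ in it. Of the 43 symbols, 36 had an entry among the RefSeq start regions of rat assembly GRCr8. A C at the start followed by at least 4 more C or T was found in 11 of the 36 (30.6%), against 2.63% of all 33465 start regions. A run of at least 6 C or T within 25 bases of the start was found in 30 of 36 (83.3%), against 43.6% of all. Below are 30 bases for 9 members whose signal changed in at least 1 comparison, 15 before the start and 15 from it on, so that the start is base 16. Each is written 5′ to 3′ on the gene's strand, and capitals mark the longest unbroken run of C and T in these bases.
Rps3a (GRCr8 chr2:173827028-173827057, minus strand): gagttgtacttccgCCCTTTTggctctcag
Rps6 (GRCr8 chr5:106420526-106420555, minus strand): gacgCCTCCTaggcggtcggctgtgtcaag
Rpl35a (GRCr8 chr11:81235007-81235036, minus strand): gcgggtcttgCCTTCCTCTTTCCgccatct
Rpl31 (GRCr8 chr9:49143096-49143125, plus strand): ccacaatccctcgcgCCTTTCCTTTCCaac
Rpl23 (GRCr8 chr10:83272170-83272199, minus strand): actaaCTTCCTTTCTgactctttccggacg
Rpl22 (GRCr8 chr5:168117946-168117975, plus strand): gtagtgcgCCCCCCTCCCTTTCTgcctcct
Rps27l (GRCr8 chr8:76443643-76443672, plus strand): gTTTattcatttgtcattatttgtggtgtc
Rpl14 (GRCr8 chr8:129163605-129163634, plus strand): gggcgggCCCTCTCCCTTCTCgctgagcgc
Rpl13a (GRCr8 chr1:104748899-104748928, minus strand): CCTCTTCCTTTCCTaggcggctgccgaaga
The run begins at the annotated start itself in Rpl31 and at the base before it in Rps3a, and is longest in Rpl22, at 15 bases. In the window of Rps27l the longest run is 3 bases, a length that several runs share on both sides of the start. Only the first of these is in capitals. The runs of Rpl13a, Rpl23 and Rps6 lie wholly before the annotated start. The position of the annotated start thus bears on whether the strict motif is found.

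Members that rose with unloading can be set beside the other members in these letters. The strict motif was found in 4 of the 10 start regions of genes that rose and in 7 of the 26 of the other members, and the longer run in 8 of 10 and 22 of 26. A few short motifs were searched on both strands over the 300 bases from 250 before to 50 after the start. CCGGAAG, a binding motif of ETS factors, was in 9 of 36 members and 8.75% of all start regions, with 3 of the 10 risers and 6 of the other 26. GGGCGG, the GC box of Sp1, was in 23 of 36 (63.9%) and 33.1% of all, with 5 of 10 and 18 of 26. GCCATNTT, the motif of YY1, was in 4 of 36 (11.1%) and 6.97% of all, and TATAAA in 4 of 36 (11.1%) and 14.2% of all, each with 1 of 10 and 3 of 26. These are descriptions of the letters in a fixed window.

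Signal is the deposited intensity of a probe set on a linear scale, and the levels of different probe sets cannot be set against each other. The median signal over all probe sets lay between 37.1 and 42.4 on the 8 arrays. Arrays of one group correlated at 0.949 to 0.963 over the log2 signal of all tested probe sets, and arrays of different groups at 0.913 to 0.945. The slow fibre list was bright on every array, with 9 of 12 listed genes on the array and 0 of them at 0. It also names Mb, Ckm and Acta1, which are not confined to slow fibres, so its brightness does not show slow fibres alone. Control pool 3 stood apart from the other control pools, and calls that change without it are named below. A probe set is called, as one that rose or fell, at an adjusted p under 0.05 from limma (Benjamini-Hochberg over 5244 tested probe sets). Log2 fold changes carry the standard error (SE) of that fit. Where a gene has several probe sets, they are numbered from the highest to the lowest fold change in unloaded against control.

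The question of the first comparison is what 12 h without weight bearing did to these mRNAs. In unloaded soleus 15 of the 61 tested probe sets rose (24.6%), from 12 genes, and 0 fell in the limma fit. Of all tested probe sets, 7.30% were called in this comparison, 3.99% as higher and 3.32% as lower. At an unadjusted p under 0.05, 18 members were higher and 5 lower, beside 482 and 644 of all 5244 tested probe sets. The genes that rose were Rps3a, Rps6, Rps27l, Rps29 and the pseudogene Rps4x-ps9 of the small subunit, and Rpl22, Rpl23, Rpl24, Rpl26, Rpl31, Rpl35a and Rpl36al1 of the large subunit. They made up 5 of 19 small-subunit and 10 of 42 large-subunit probe sets. The rises did not extend to the median member: the median log2 fold change was 0.01, beside -0.08 over all tested probe sets. Above 0 were 32 members and below it 29, beside 2164 and 3080 of all 5244. Single values ran from -0.82 to 1.66. The arrays of both groups did not overlap in 20 members that were higher, beside 10.2% of all tested probe sets, and in 8 that were lower, beside 16.2%.

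**Figure D1:**
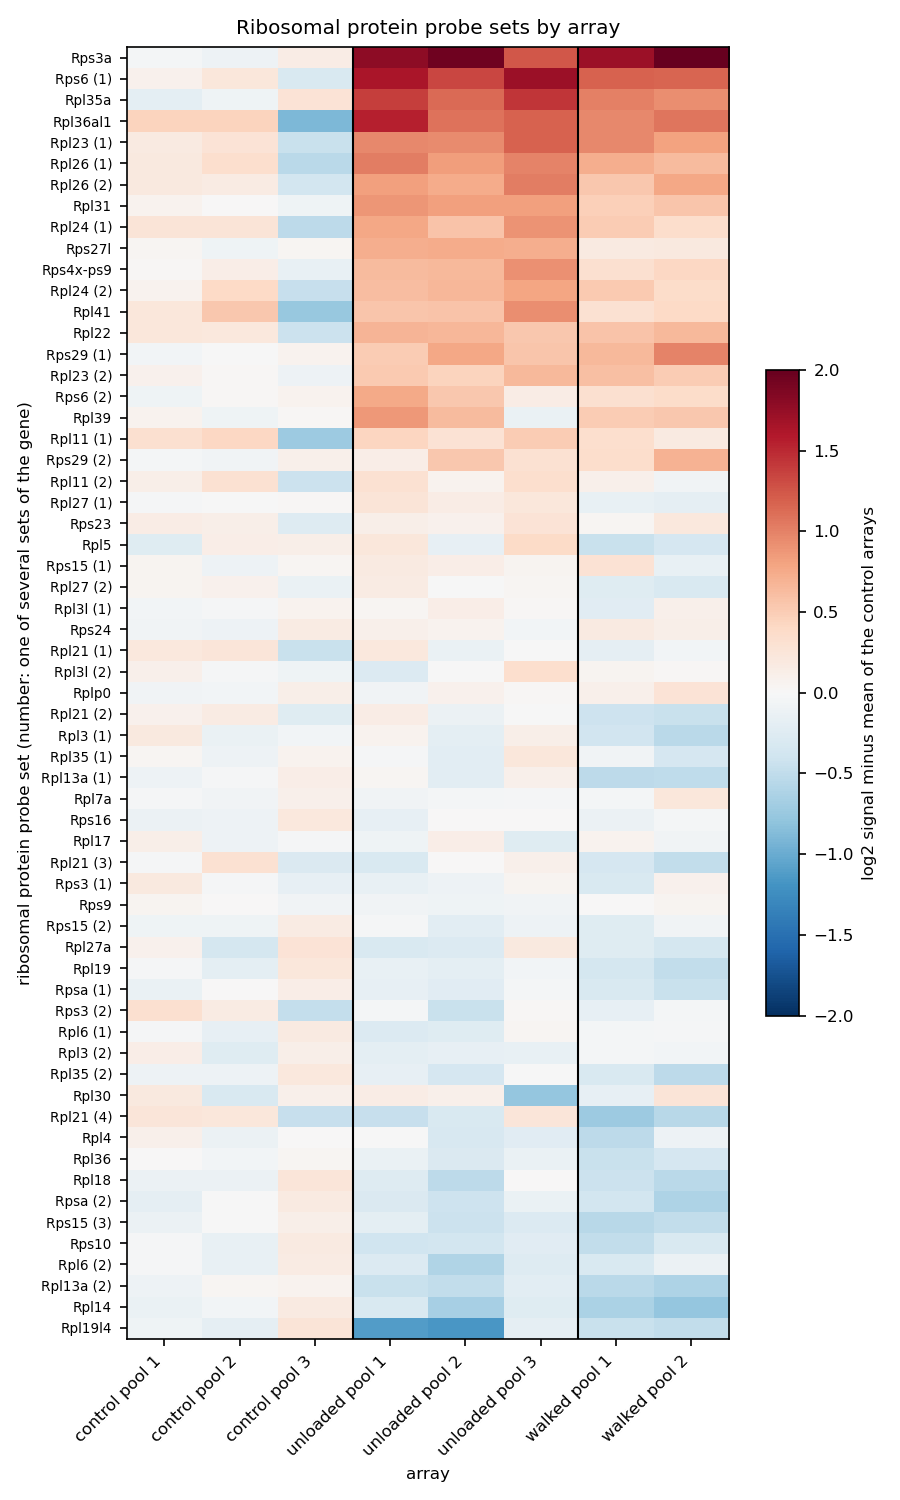
Log2 signal of the 61 tested ribosomal protein probe sets (rows) on the 8 arrays (columns), each shown as the difference from the mean of the 3 control arrays by the colour scale. The 15 probe sets that rose in unloaded soleus are higher on all 3 unloaded arrays than on any control array, while most other rows stay pale.

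Most members are bright, and so the bright probe sets of other genes are a closer comparison than all of them. Of 1689 tested probe sets above the 80th percentile of signal that are no members, 122 rose (7.22%) and 114 fell in unloaded soleus. Of the 59 members in that range, 15 rose (25.4%). The members' part of the summed signal of an array was 5.98%, 5.87% and 5.65% in the control pools, 6.59%, 6.20% and 6.72% in the unloaded pools, and 5.93% and 5.99% in the walked pools. The unloaded pools thus had the 3 highest shares.

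Among small-subunit genes the largest rise was that of Rps3a, a protein near the site where mRNA leaves the subunit. Its signal was 790.4, 764 and 900.2 in the control pools, 2821, 3147 and 1942 in the unloaded pools and 2667 and 3331 in the walked pools. The lowest of the 5 unloaded and walked values was more than the highest control value, with no overlap. The rise in unloaded soleus was 1.66 ± 0.18 (SE) on the log2 scale (limma, adjusted p = 0.000233).

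Rps6, the main ribosomal substrate of S6 kinase, has 2 probe sets, both drawn from 1 sequence entry. In set 1 the signal was 525, 577 and 399 in control, 1541, 1248 and 1625 in unloaded and 1126 and 1105 in walked pools. It rose by 1.57 ± 0.16 (SE) in unloaded soleus (limma, adjusted p = 0.000151), and walked values lay between those of the other groups. In set 2 the signal was 1872, 2019 and 2076 in control, 3365, 2894 and 2198 in unloaded and 2494 and 2576 in walked pools. Here the unloaded arrays were again all above the control arrays, but the log2 fold change of 0.48 ± 0.15 (SE) did not pass (adjusted p = 0.0825). In this comparison the gap of 1.08 was the widest between probe sets of any of the 16 genes with more than 1, and the others differed by at most 0.49.

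Rps27l, a close paralogue of Rps27, had even values within each group. It measured 419.8, 384 and 417 in control, 672, 680.4 and 674 in unloaded and 458 and 466 in walked pools. Unloaded arrays stood above all others, and walked arrays lay just above control. The rise was 0.73 ± 0.12 (SE) with adjusted p = 0.00303 (limma). The signal of close paralogues cannot be told apart where their sequences are shared, and whether the set also reads Rps27 was not tested. The same holds for Rps4x-ps9, whose set may read Rps4x: it measured 582, 627 and 518 in control, 887, 899 and 1079.7 in unloaded and 716 and 763 in walked pools. Its rise was 0.73 ± 0.13 (SE), adjusted p = 0.00651 (limma).

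Rps29, a small zinc-binding protein, rose in 1 of its 2 probe sets. Set 1 measured 3023, 3145 and 3293 in control, 4477, 5363 and 4606 in unloaded and 4956 and 6275 in walked pools, a rise of 0.61 ± 0.13 (SE) in unloaded soleus (limma, adjusted p = 0.0136). Set 2 measured 3971, 3919.7 and 4415 in control, 4486, 5966 and 5059 in unloaded and 5237 and 6651 in walked pools. Both sets showed no overlap between control and unloaded arrays, and set 2 had a log2 fold change of 0.33 ± 0.14 (SE) that did not pass (adjusted p = 0.199). Set 1 lost its call without control pool 1 (adjusted p = 0.0534) or unloaded pool 2 (adjusted p = 0.0608).

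In the large subunit the largest rise was that of Rpl35a. Its signal was 424, 461 and 590.4 in control, 1268, 1063 and 1307 in unloaded and 983 and 932 in walked pools. The groups did not overlap at all, and the rise in unloaded soleus was 1.31 ± 0.15 (SE; limma, adjusted p = 0.000388). Rpl31, which sits at the rim of the exit tunnel, measured 2881, 2750.5 and 2573 in control, 5048, 4834 and 4846 in unloaded and 3798 and 4022 in walked pools. It also had 3 separate groups of arrays, with the walked pools in the middle, and rose by 0.85 ± 0.10 (SE; adjusted p = 0.000543).

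Rpl26, another protein at the tunnel rim, rose in both of its probe sets. Set 1 measured 1506, 1671 and 908 in control, 2663, 2353 and 2613 in unloaded and 2177 and 2041 in walked pools (0.95 ± 0.20 (SE), adjusted p = 0.0136). Set 2 measured 1853, 1806 and 1255 in control, 2836, 2702 and 3296 in unloaded and 2342 and 2762 in walked pools (0.86 ± 0.16 (SE), adjusted p = 0.00807). In both, control pool 3 was the lowest array, and set 1 lost its call without unloaded pool 1 (adjusted p = 0.0560). Of the 9 probe sets of 7 genes listed for the exit tunnel and its rim, these 2 and Rpl31 rose. Rpl39, a short protein of the tunnel wall, measured 1123, 1006 and 1082 in control, 1942, 1659.9 and 977 in unloaded and 1516 and 1559 in walked pools. Unloaded pool 3 was its lowest array, and without that pool its log2 fold change of 0.46 (adjusted p = 0.240) became 0.75 (adjusted p = 0.00667). Rpl4, Rpl17, Rpl19 and both sets of Rpl35 had log2 fold changes between -0.18 and 0.00 and were not called.

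Rpl23, a protein of the face where the subunits join, rose in both of its sets. Set 1 measured 971, 1039 and 630.1 in control, 1676, 1659 and 1948 in unloaded and 1669 and 1496 in walked pools (1.03 ± 0.18 (SE), adjusted p = 0.00535). Set 2 measured 3119.8, 2984 and 2738 in control, 4244, 4017 and 4607 in unloaded and 4469 and 4169 in walked pools (0.54 ± 0.11 (SE), adjusted p = 0.0122). Walked arrays lay at the unloaded level in both.

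Rpl24, a late-joining protein at a bridge between the subunits, and Rpl22, an RNA-binding protein of the large subunit, rose as well. Set 1 of Rpl24 measured 3439.7, 3453 and 1995 in control, 4925, 4282 and 5369 in unloaded and 4098 and 3647 in walked pools (0.75 ± 0.20 (SE), adjusted p = 0.0413). Set 2 measured 1474, 1854 and 1025 in control, 2159, 2239.8 and 2441 in unloaded and 2022 and 1818 in walked pools (0.69 ± 0.19 (SE), adjusted p = 0.0465). Rpl22 measured 2305, 2273 and 1459.5 in control, 3154, 3105 and 2853 in unloaded and 2921 and 3099 in walked pools (0.62 ± 0.17 (SE), adjusted p = 0.0462). Control pool 3 was far below the other control pools in these sets. Without it, the log2 fold changes were 0.49 (adjusted p = 0.0473) and 0.46 (adjusted p = 0.0764) for Rpl24 and 0.41 (adjusted p = 0.0603) for Rpl22. These 3 calls were also lost without any 1 of the unloaded or walked pools (adjusted p = 0.0633 to 0.135), and that of Rpl24 set 2 without control pool 1 (adjusted p = 0.0869).

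Rpl36al1 had uneven controls, at 444, 444 and 175, against 953, 690.4 and 735 in unloaded and 632 and 681 in walked pools. Its log2 fold change was 1.27 ± 0.30 (SE; limma, adjusted p = 0.0278). Without control pool 3 it was 0.82, and the call was kept (adjusted p = 0.0101). Left out singly, each unloaded pool took away the call (adjusted p = 0.0570 to 0.112).

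**Figure D2:**
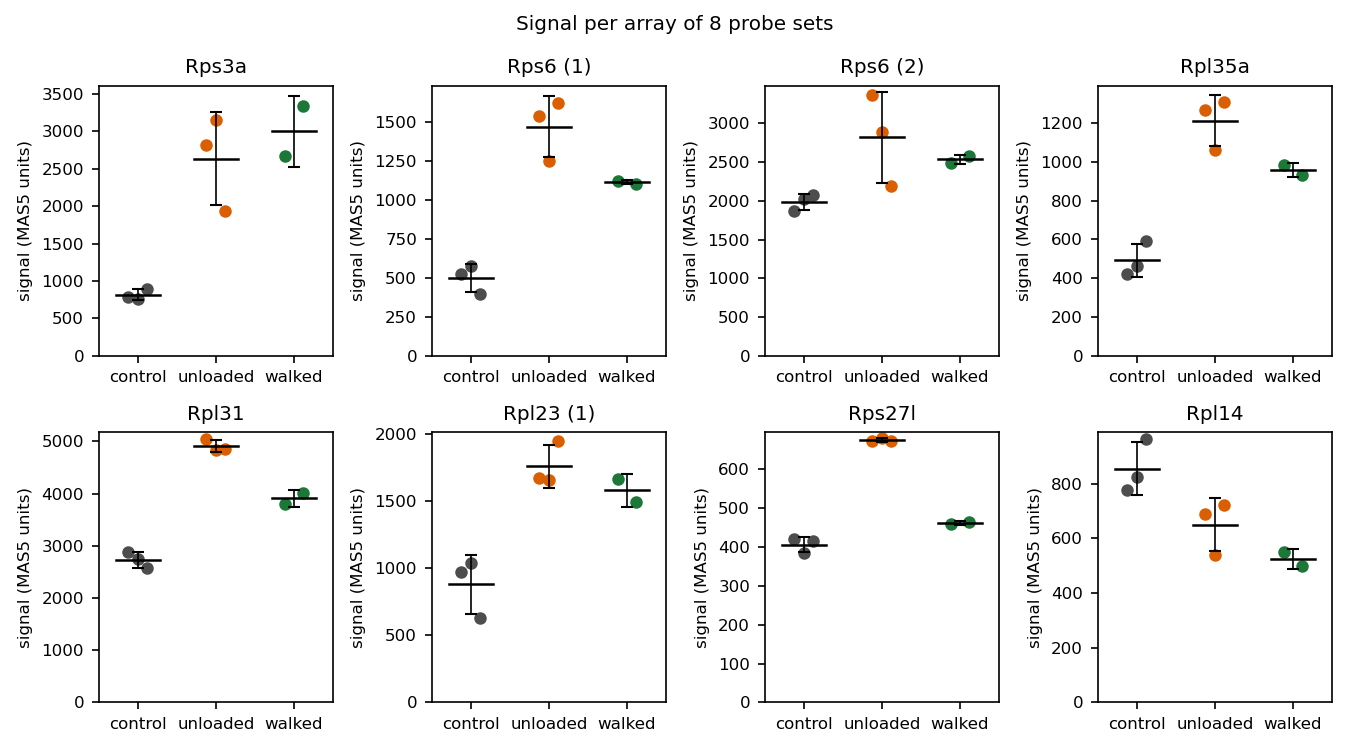
Signal of ribosomal protein probe sets on each array (points), by group, on a linear axis that starts at 0 in each panel. In walked pools Rps3a is as high as in unloaded pools, Rps27l measures 458 and 466, just above its control values, and Rpl31 lies between.

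Control pool 3 bears on several of these rises. Compared with the mean of the other control pools on the log2 scale, 13 of the 61 members were more than 0.5 lower in pool 3 and 0 were more than 0.5 higher, while 14.6% of all tested probe sets were that much lower and 7.51% that much higher. The lowest were Rpl36al1 at -1.34, Rpl41 at -1.14 and Rpl11 set 1 at -1.09. In control pool 1, 0 members were that much lower and 1 higher, beside 6.90% and 12.0% of all tested probe sets. In control pool 2, 1 was lower and 5 higher, beside 8.22% and 9.40%. Of the 15 probe sets that rose, 11 were lower in pool 3 than in the other control pools, and in these 11 it was the lowest of all 8 arrays. In pools 1 and 2, 3 and 4 of the 15 lay below the mean of the other control pools. The 15 were picked for low control values, which favours a control pool as the lowest array. That pool 3 was the lowest of 8 thus adds little to its being the lowest control pool. Left out of the fit, pool 3 took the count of members that rose from 15 to 13. Of the 8 arrays, pool 3 was the lowest for 17 of 61 members, beside 14.7% of all tested probe sets, and the highest for 17, beside 22.1%.

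**Figure D3:**
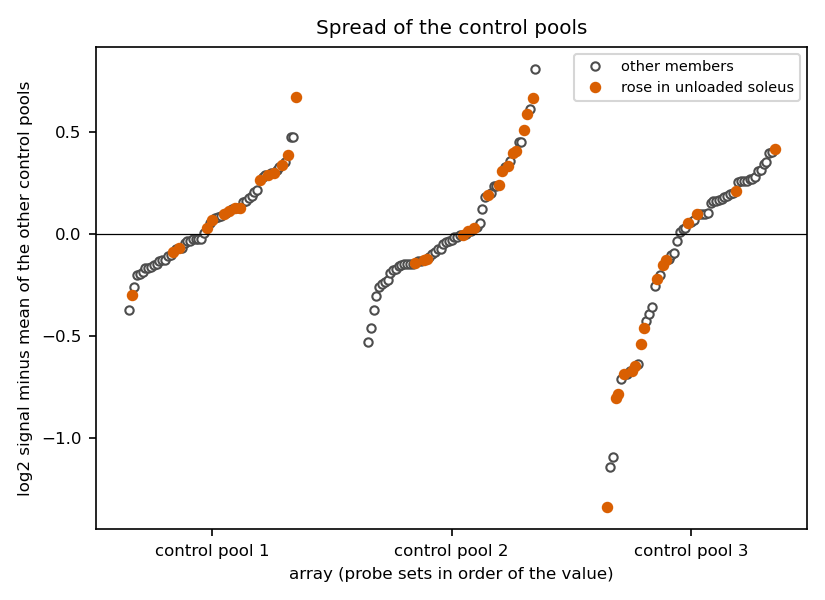
For each control pool, the log2 signal of every tested member minus the mean of the other control pools, in order of the value, with the 15 probe sets that rose in unloaded soleus filled. Control pool 3 has 13 members more than 0.5 below the others, down to -1.34, and pools 1 and 2 have 0 and 1.

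Members listed for other named parts of the ribosome were not called in unloaded soleus. Rplp0, the base protein of the stalk that recruits elongation factors, measured 4474, 4503 and 5108 in control, 4484, 4979 and 4742 in unloaded and 5047 and 5693 in walked pools, with a log2 fold change of 0.01 ± 0.11 (SE). Rpl5 and Rpl11, which with 5S RNA form a particle that can bind Mdm2, had 0 of 3 probe sets called. Set 1 of Rpl11 measured 3199, 3409.6 and 1546 in control and 3440.2, 3125 and 3658 in unloaded pools, so that its 0.41 (adjusted p = 0.383) came with the low value of control pool 3. Rpl3, at the centre of peptide bond formation, had -0.00 and -0.17 in its sets, and Rpl3l, its paralogue of striated muscle, had 0.06 and 0.02. Rps3, Rps15 and Rps23, the genes listed for the path of the mRNA, had 0 of 6 probe sets called, with values between -0.30 and 0.16. That list leaves out Rps3a, which lies near the exit of the mRNA and rose.

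The very bright Rps16 and Rpl7a stayed at -0.04 and -0.04. The lowest fold change was that of Rpl19l4, at 373, 352 and 476 in control, 183, 176 and 349 in unloaded and 292 and 283 in walked pools (-0.82 ± 0.24 (SE), adjusted p = 0.0676). All its unloaded arrays lay below its control arrays, and the call did not pass in the limma fit. It was called as fallen with the stricter filter on low signal (adjusted p = 0.0493) and, at -1.14, without unloaded pool 3 (adjusted p = 0.00297).

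**Figure D4:**
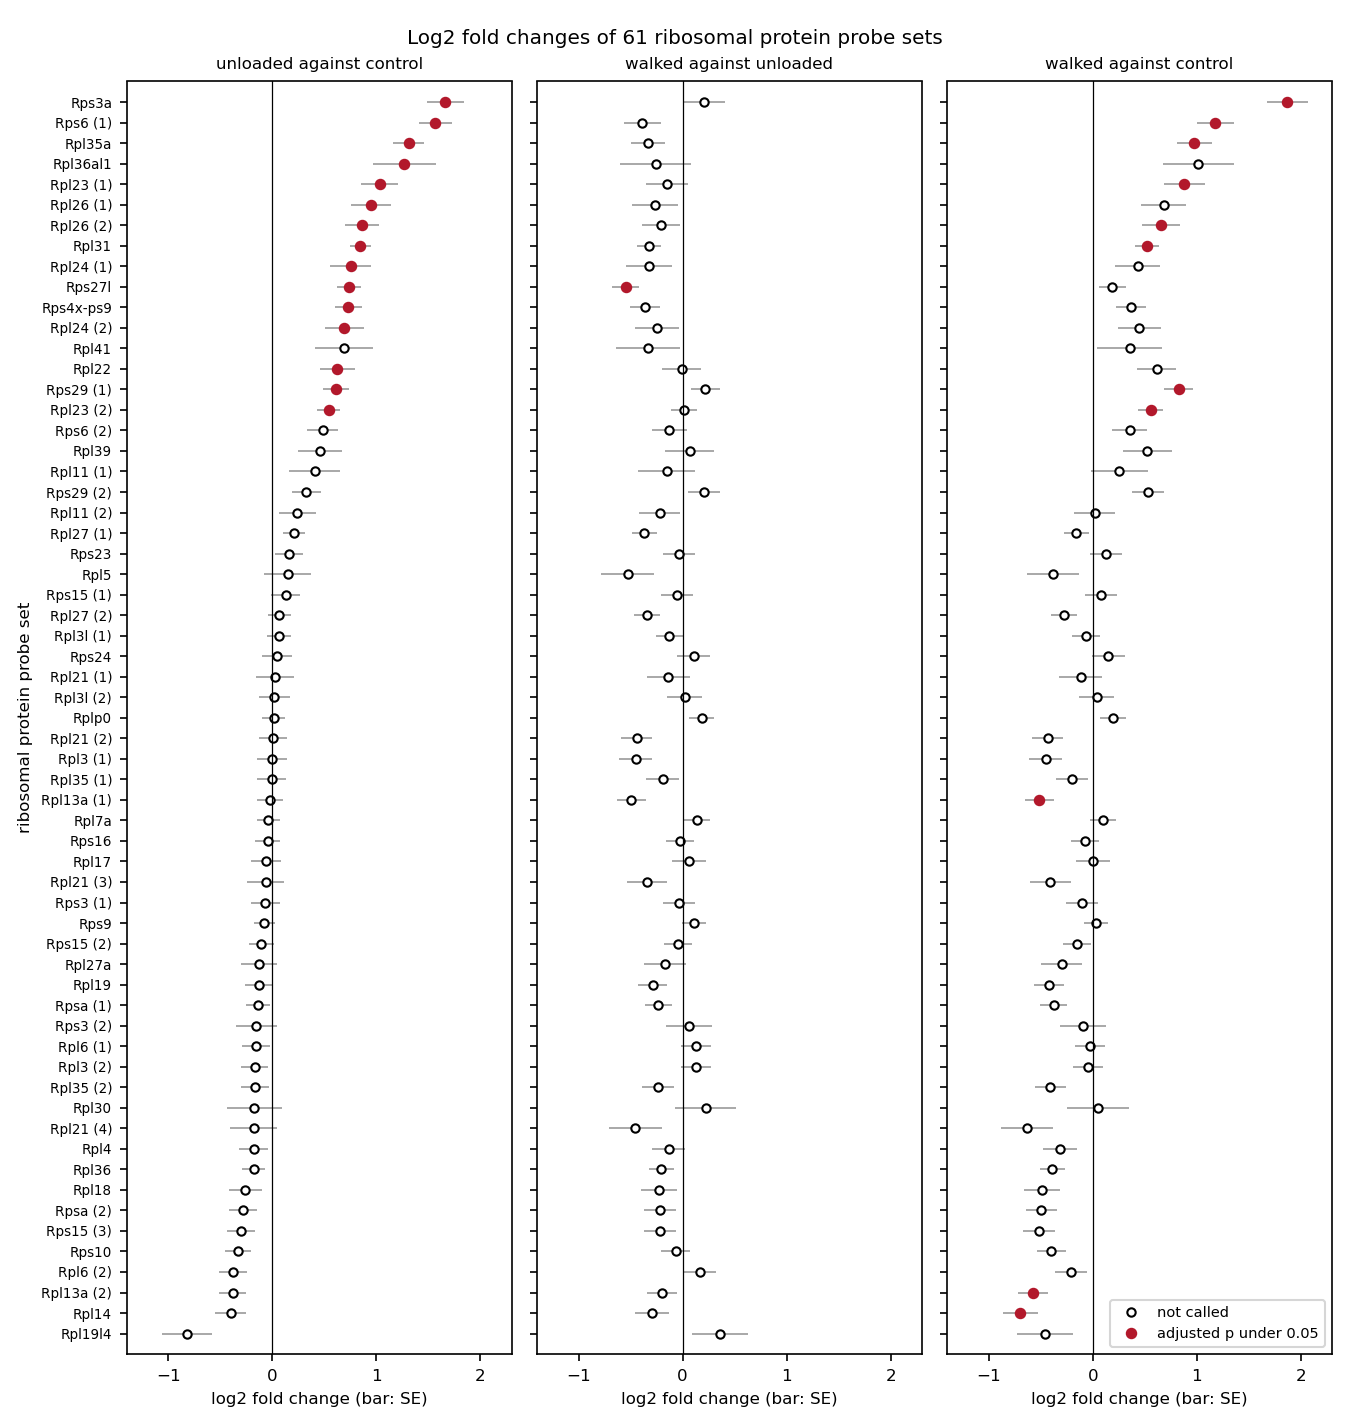
Log2 fold change of the tested ribosomal protein probe sets in each comparison, with bars of 1 SE from the limma fit and called sets filled. In unloaded against control 15 sets lie above 0 with a call and none below, and in walked against unloaded Rps27l at -0.55 is the one call.

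The second comparison asks what differed from unloaded soleus after the walking bouts and the cage activity between them. In walked against unloaded soleus 0 of 61 members rose and 1 fell in the limma fit, beside 2.73% and 1.47% of all tested probe sets (4.20% in either direction). At an unadjusted p under 0.05, 0 members were higher and 8 lower, beside 366 and 549 of all 5244 tested probe sets. The median log2 fold change was -0.17, beside -0.05 over all tested probe sets. Below 0 were 44 of 61 members, beside 2902 of all 5244. The arrays did not overlap in 23 lower members (37.7%, beside 21.8% of all) and in 4 higher ones (6.56%, beside 13.3%). Among the 1689 bright probe sets that are no members, 26.5% were lower and 17.6% higher without overlap. The member that fell was Rps27l, by 0.55 ± 0.13 (SE) on the log2 scale (limma, adjusted p = 0.0391). Its walked arrays were both below all unloaded arrays. The call was lost when any 1 array other than control pool 3 was left out, with adjusted p from 0.0579 without control pool 1 to 0.188 without walked pool 2 and above that without walked pool 1, so the count was then 0.

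The 15 probe sets that had risen were followed through the walked arrays, which do not enter their fold changes but do enter the spread that the fit shares over all 8 arrays. Without walked pool 1 or walked pool 2, 12 of the 61 members rose in unloaded against control. Unloaded arrays take part in both comparisons, so the values of each are set side by side and are not independent. In 12 of the 15 the walked mean lay between the control and the unloaded mean, and in 3 (Rps3a, Rps29 set 1 and Rpl23 set 2) it lay above the unloaded mean. In 9 both walked arrays were below all unloaded arrays, beside 21.8% of all tested probe sets. In 14, all but Rpl24 set 2, both were above all control arrays, beside 15.3% of all. The 15 sets were picked for high unloaded and low control values. This choice favours such counts and walked means between the groups, so they cannot by themselves show a return towards control. The log2 fold changes in walked against unloaded were 0.21 ± 0.20 (SE) for Rps3a, -0.39 ± 0.18 (SE) for Rps6 set 1, -0.33 ± 0.17 (SE) for Rpl35a and -0.33 ± 0.11 (SE) for Rpl31, with adjusted p between 0.159 and 0.658.

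The third comparison sets soleus that was unloaded and then walked against cage control. In walked against control 8 of 61 members rose (13.1%, 7 genes) and 3 fell (4.92%, 2 genes). Of all tested probe sets 4.46% rose and 4.61% fell (9.08% in either direction). Among the 1689 bright probe sets that are no members, 8.82% rose and 7.70% fell. The median was -0.03, beside -0.11 over all, with 29 members above 0 and 32 below, beside 2104 and 3140 of all 5244. The arrays did not overlap in 17 higher members (27.9%), beside 15.3% of all and 21.8% of the bright sets that are no members. They did not overlap in 19 lower members (31.1%), beside 27.8% and 34.6%. Under quantile normalization 5 rose and 9 fell, so the balance of directions in this comparison depends on the scaling.

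The sets that rose were Rps3a (1.87 ± 0.20 (SE), adjusted p = 0.000303), Rps6 set 1 (1.18 ± 0.18 (SE), adjusted p = 0.00300), Rpl35a (0.98 ± 0.17 (SE), adjusted p = 0.00619), both sets of Rpl23 (0.88 and 0.56), Rps29 set 1 (0.83), Rpl26 set 2 (0.66) and Rpl31 (0.52). All 8 were among those that rose in unloaded soleus, but both comparisons use the same control arrays. Rpl14, a large-subunit protein, fell by 0.69 ± 0.16 (SE; adjusted p = 0.0282). It measured 778, 824 and 964 in control, 689, 540.1 and 720.5 in unloaded and 552 and 499.8 in walked pools, with no overlap between walked and control arrays.

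Both sets of Rpl13a, a protein that can leave the ribosome to silence the translation of inflammatory mRNAs, fell as well. Set 1 measured 1552, 1628 and 1819 in control, 1711, 1441 and 1788 in unloaded and 1161 and 1167 in walked pools (-0.51 ± 0.14 (SE), adjusted p = 0.0432). Set 2 measured 626, 689 and 703 in control, 495, 476 and 583 in unloaded and 464 and 437 in walked pools (-0.58 ± 0.14 (SE), adjusted p = 0.0340). In unloaded pools set 1 overlapped its control values, while set 2 lay below all of them.

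With 2 walked arrays, this comparison rests on each of them. Without walked pool 1, 3 members rose and 0 fell, and without walked pool 2, 2 rose and 0 fell. Without control pool 2, 6 rose and 0 fell. Without control pool 3, 7 rose and 2 fell, but not the same sets: Rpl14 (adjusted p = 0.0604), both sets of Rpl13a (0.0901 and 0.0675 for sets 1 and 2) and the rise of Rpl26 set 2 (0.0778) lost their calls, and the 2 that fell were sets of Rpl21 (-0.55, adjusted p = 0.0383, and -0.86, adjusted p = 0.0479). Rps3a and Rps6 set 1 were called without either walked pool.

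Other genes of protein synthesis were read from the same fit. Among initiation factors, 4 of 29 probe sets rose in unloaded soleus and 0 fell. They were both sets of Eif4a2, an RNA helicase of the cap-binding complex (2.66 ± 0.15 (SE), adjusted p = 1.73e-06, and 2.45 ± 0.12 (SE), adjusted p = 1.37e-06), Eif4e, which binds the cap (1.46 ± 0.17 (SE), adjusted p = 0.000388), and 1 set of Eif4ebp1, which holds Eif4e inactive (0.91 ± 0.15 (SE), adjusted p = 0.00417). The same 4 sets rose in walked against control. In walked against unloaded 0 of the 29 were called.

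Elongation factors had 0 of 10 sets that rose in unloaded soleus and 1 that fell, Eef2 (-0.55 ± 0.12 (SE), adjusted p = 0.0177), which moves the ribosome along the mRNA. Its 3 other sets were lower without a call. Eef2k, the kinase that inhibits Eef2, fell in walked against unloaded (-1.004 ± 0.22 (SE), adjusted p = 0.0293), and 1 set of Eef1a1, which delivers aminoacyl-tRNA, fell in walked against control (-0.67 ± 0.16 (SE), adjusted p = 0.0290). Of 17 probe sets of 8 other genes whose mRNAs carry the TOP motif, a list that shares Eef2 and Eef1a1 with the elongation factors, 1 rose (Hnrnpa1, 1.07) and 1 fell (Eef2) in unloaded soleus. In walked against control 1 of the 17 fell (Eef1a1), and in walked against unloaded 0 were called.

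In ribosome assembly, 0 of 19 sets were called in unloaded soleus. After walking, 2 sets of Gnl3, the nucleolar protein nucleostemin, rose: by 2.22 ± 0.34 (SE; adjusted p = 0.00259) and 1.35 ± 0.20 (SE; adjusted p = 0.00209) against unloaded, and both rose against control (adjusted p = 0.000810 and 0.00141). Among 17 sets of the mTOR and S6 kinase pathway, Eif4ebp1 rose in unloaded soleus and in walked against control, where 1 set of Akt2 fell (-0.74). The sets of Rps6kb1, the S6 kinase itself, had log2 fold changes of -0.20 and 0.12 in unloaded soleus without a call. Mitochondrial ribosomal proteins, which build the separate ribosome of mitochondria, had 0 of 16 sets called in each of the 3 comparisons in the limma fit, with a median of -0.14 for unloading, -0.17 for walking after unloading and -0.18 for both against control. Aminoacyl-tRNA synthetases had 0 of 4 in each.

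Markers of other cell types moved between the groups as well. In whole muscle, fewer cells of a type and less RNA per cell cannot be told apart. The summed signal of the 4 smooth muscle markers was 2636 to 3071 in control, 1589 to 1937 in unloaded and 2314 to 2512 in walked pools, and 3 of 8 tested sets fell in unloaded soleus. That of 9 fast fibre markers was 10608 to 13374 in control, 13665 to 15790 in unloaded and 10225 to 11147 in walked pools, with 0 of 9 sets called in unloaded against control, 2 fallen in walked against unloaded and 1 fallen in walked against control. Sums of the 5 fibroblast markers were 10572 to 16121 in control, 13871 to 19877 in unloaded and 11266 to 11724 in walked pools. Of their 13 tested sets, 4 rose in unloaded soleus, all of Dcn. In walked against unloaded 0 rose and 2 fell, and in walked against control 2 rose and 3 fell. The slow fibre list, which also names Mb, Ckm and Acta1, summed to 31928 to 38191 in control, 37185 to 53914.5 in unloaded and 49263 to 58343 in walked pools. Of its 18 tested sets, 7 rose and 1 fell in walked against control, with 1 fallen in unloaded soleus. Leukocyte markers summed to 1356 to 1521 in control, 1144 to 1430 in unloaded and 1076 to 1161 in walked pools, with 1 of 9 sets risen in unloaded soleus and 1 fallen in walked against control. Endothelial, adipocyte, nerve and red blood cell lists had 0, 1, 0 and 0 sets risen and 0 fallen in unloaded soleus, and 1 nerve set fell in walked against unloaded. Of all marker genes on the array, 0 were at 0. Their part in the results was not tested.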

How the data were processed

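Biotin-labelled cRNA from 10 microg of pooled total RNA was hybridised to 1 one-colour Affymetrix array per pool, per the labels. The deposited intensity values come from MAS5, according to the processing notes of the submitters. Its version is not given in the sources used here. This method subtracts a mismatch or background estimate, so dim signals are noisy.

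Arrays were scaled to one trimmed mean (148.6, leaving out 2% at each end), values under the 10th percentile (4.10) were raised to it, and log2 was taken. Probe sets under the 40th percentile of mean signal (25.8) were left out. limma 3.58.1 in R 4.3.3 (lmFit, contrasts.fit, eBayes with trend, two-sided) was fitted to all 8 arrays by group and tested on simulated data. Printed signals are as deposited. The number of arrays limits the precision: an exact permutation test of 1 gene could not go below 0.1. P-values measure the spread between pools.

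Symbols came from the platform annotation: 7006 probe sets had 1 symbol, 308 several and 1426 none. Of 43 member symbols, 42 matched the GRCr8 gene table and 0 changed.

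Named are the members called in any comparison, their genes' other sets, the 5 brightest member genes, members of the role lists, paralogue pairs, and up to 4 called genes of each protein synthesis list per comparison. Rpl19l4, Rpl41, Rpl27, Rpl7a, Rpl21, Dcn and Rps6kb1 were singled out after values were seen. Members and lists were chosen with earlier results of these data known. Alternatives were quantile normalization, no rescaling, centring on bright probe sets, other floors and filters, no trend, only the groups compared, the pool number as a block, plainly named sets, 1 set per gene, and each array left out.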

Additional observations from a re-analysis of the deposited data

How the results depend on the processing

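In unloaded against control, 15 members were called; the count was 7 with no filter and 8 with no trend, and between 10 and 15 when 1 array was left out. The median of 0.01 became -0.019 under quantile normalization and 0.15 over the 33 plainly named sets, which hold 10 of the 15 rises, and ran from 0.0040 to 0.071 without 1 array. In walked against unloaded, 1 member was called: 2 with no filter (Rps27l and Rpl27), 0 with no trend, and 0 to 1 without 1 array. The median of -0.17 was -0.21 over plainly named sets and -0.13 with 1 set per gene, and ran from -0.24 to -0.14 without 1 array. In walked against control, 11 were called: 6 with no filter, 4 with no trend, 7 with 1 set per gene, and 2 to 12 without 1 array. The median of -0.03 was -0.10 under quantile normalization, 0.039 over plainly named sets and 0.016 with 1 set per gene, and ran from -0.049 to 0.059 without 1 array. Fewer sets were tested over plainly named sets and with 1 set per gene, and the cause of the other shifts was not tested. The labels do not say whether equal pool numbers mark paired arrays. Deviations of same-numbered arrays from their group means correlated at -0.067 to 0.052 and of others at -0.068 to 0.11. Deviations within such small groups are tied to each other, so these correlations cannot decide whether the arrays are paired. With the pool number as a block, the counts were 16 (15 rose and 1, Rpl19l4, fell, with adjusted p = 0.0137), 0 and 5 (5 rose and 0 fell). Of 27 single calls, 8 were kept in each of 18 alternatives and 11 in every fit without 1 array, and 0 reversed. The 8 were Rps3a, Rps6 set 1, Rpl35a, Rpl31, Rps27l and Rps4x-ps9 in unloaded against control, and Rps3a and Rps6 set 1 in walked against control. In unloaded against control, Rpl22, both sets of Rpl24, Rpl26 set 1, Rpl36al1 and Rps29 set 1 lost the call without at least 1 array. The dimmest tested member, Rpl5, measured 42.7 to 75.2, above the floor of 4.10 and the filter of 25.8.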

Other observations

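A further 40 probe sets carry several symbols, at least 1 of them a ribosomal protein, and were left out of the members by the naming rule. Of the 38 tested, 7 rose (18.4%) and 0 fell in unloaded against control, beside 3.99% and 3.32% of all tested probe sets. The median log2 fold change was -0.11. In walked against unloaded 0 of the 38 were called in the limma fit, beside 4.20% of all tested probe sets. At an unadjusted p under 0.05, 0 of the 38 were higher and 1 lower, beside 366 and 549 of all 5244 tested probe sets. In walked against control 6 rose (15.8%) and 7 fell (18.4%), beside 4.46% and 4.61% of all, with a median of -0.23. No gene is named from these sets.

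The median SD of log2 signal within a group was 0.166 for members and 0.220 for all tested probe sets in control, 0.149 and 0.227 in unloaded, and 0.0913 and 0.169 in walked pools. Most members are bright, and against other probe sets above the 80th percentile of signal the gap was smaller: the members in that range had 0.166, 0.144 and 0.0913 in control, unloaded and walked pools, and the other probe sets 0.165, 0.163 and 0.112.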
